A study of Mus musculus with 2 samples.

Results

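Of 3875 putative Zfp322a binding sites rebuilt from the ChIP-seq reads of mES cells, 739 (19.1%) lay in introns, outside the neighbourhood of any transcription start site (TSS). These intronic sites were chosen from measured values. Only reads of mapping quality 25 or more were used, which leaves out reads that fit several places of the genome equally well, and each read was extended to a fragment of 300 bp. The number of fragments over a base was its pileup height. Stretches with a Zfp322a height of 9 or more were joined across gaps of up to 300 bp. A joined stretch became a site when its greatest Zfp322a height was 3 or more times its greatest IgG height, where an IgG height of 0 was set to 1. Sites that touched the window from 1000 bp before to 100 bp after the start of any annotated transcript were TSS sites, and there were 2243 of them. By the position of its middle in the mm9 genome with the GENCODE vM1 annotation, each remaining site was intronic (739, in a gene but in no exon), intergenic (536) or exonic (357).

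Both libraries came from E14 cells, an established mouse ES cell line, cultured with serum and LIF, and the labels give C57BL/6 as the background strain of both. No treatment or genetic change of the cells is given for either. Chromatin was precipitated with anti-ZNF322 antibody, named after the human orthologue of Zfp322a, or with anti-Rabbit IgG antibody as the control, and the question was where in the genome Zfp322a binds. There was 1 library for each antibody, so heights and folds are descriptions without a test, and all intervals (95%, exact) cover counting error only. After the mapping quality filter the Zfp322a library held 4151151 of 5187475 reads (80.0%) and the IgG library 3877802 of 4843481 (80.1%), a ratio of 1.07. In neither library did reads share both strand and 5′ position.

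Introns carry a large part of the enhancers of mammalian genomes, and the start of a first intron often continues the CpG-rich regulatory sequence of the promoter. Transcription factors that act at promoters and those that act at distant enhancers tend to recognise different DNA words, so the position of a site and the sequence under it are read side by side. Zfp322a is a C2H2 zinc finger protein, which the study places in the KRAB family. Proteins of this kind bind DNA through arrays of zinc fingers.

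The sequences below come from the plus strand of mm9 around the summit of a site, the base of greatest Zfp322a height, with the searched word in capitals. A match on the other strand appears as its reverse complement. The first set shows motif 3, one of the motifs that the study derived from its peaks, because it was rarer in intronic than in TSS sites. The letters searched for motif 3 begin with AANATGGC and resemble the known element of the zinc finger protein YY1. The study likens its motif 3 to the Oct4/Sox2 element instead, which was searched as a word of its own. The match lay 83 bp after the summit in *Cfl2*, 79 bp before it in *Wdr43* and 134 bp after it in *Ndufs4*, where it falls in the first exon while the middle of the site lies in the intron.
*Cfl2* (mm9 chr12:55963483-55963682, plus strand): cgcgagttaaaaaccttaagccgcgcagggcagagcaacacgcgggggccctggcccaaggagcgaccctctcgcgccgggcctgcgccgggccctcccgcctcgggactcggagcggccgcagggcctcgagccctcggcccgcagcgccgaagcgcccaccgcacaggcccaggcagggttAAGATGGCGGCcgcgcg
*Wdr43* (mm9 chr17:71966062-71966261, plus strand): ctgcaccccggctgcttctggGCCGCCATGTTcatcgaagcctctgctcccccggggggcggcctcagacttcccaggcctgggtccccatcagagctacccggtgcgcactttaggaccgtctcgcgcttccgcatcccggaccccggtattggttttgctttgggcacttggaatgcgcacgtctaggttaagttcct
*Ndufs4* (mm9 chr13:115177973-115178267, plus strand): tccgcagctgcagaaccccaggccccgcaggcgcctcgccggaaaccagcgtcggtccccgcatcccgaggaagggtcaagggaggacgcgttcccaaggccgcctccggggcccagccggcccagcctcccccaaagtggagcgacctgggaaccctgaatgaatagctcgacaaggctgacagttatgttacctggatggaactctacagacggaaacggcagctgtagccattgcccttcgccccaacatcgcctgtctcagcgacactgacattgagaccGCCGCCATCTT

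The second set shows GAGCCTGG, the core of the element known for human ZNF322, in the 3 highest intronic sites that hold it.
*Vcp* (mm9 chr4:43012534-43012833, plus strand): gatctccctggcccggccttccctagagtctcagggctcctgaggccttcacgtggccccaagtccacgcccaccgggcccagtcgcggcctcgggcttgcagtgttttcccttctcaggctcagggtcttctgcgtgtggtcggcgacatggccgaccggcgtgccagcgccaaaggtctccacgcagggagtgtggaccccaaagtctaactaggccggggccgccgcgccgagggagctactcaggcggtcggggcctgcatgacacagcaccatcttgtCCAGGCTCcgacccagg
*Pole4* (mm9 chr6:82638048-82638347, plus strand): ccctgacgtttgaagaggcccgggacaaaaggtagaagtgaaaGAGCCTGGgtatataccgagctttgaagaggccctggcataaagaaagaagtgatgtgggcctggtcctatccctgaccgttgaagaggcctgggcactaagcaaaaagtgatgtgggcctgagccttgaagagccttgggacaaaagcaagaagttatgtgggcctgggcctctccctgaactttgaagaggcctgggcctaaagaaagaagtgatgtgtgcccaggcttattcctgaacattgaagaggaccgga
*Arhgef3* (mm9 chr14:28164532-28164731, plus strand): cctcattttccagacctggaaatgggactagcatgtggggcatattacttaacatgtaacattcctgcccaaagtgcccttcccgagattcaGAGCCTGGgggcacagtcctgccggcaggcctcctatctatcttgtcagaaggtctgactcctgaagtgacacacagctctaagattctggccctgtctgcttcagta

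The third set shows 1 site each for the short word AANATGGC on its own, for the Oct4/Sox2 composite element and for the CTCF core. Oct4 and Sox2 are core factors of pluripotency, and the composite element that they bind was matched with up to 2 mismatches. CTCF is a zinc finger protein that separates chromatin domains. In *Tmem17* 100 of the 213 printed bases are exon, and the word lies outside them.
*Tmem17* (mm9 chr11:22412487-22412699, plus strand): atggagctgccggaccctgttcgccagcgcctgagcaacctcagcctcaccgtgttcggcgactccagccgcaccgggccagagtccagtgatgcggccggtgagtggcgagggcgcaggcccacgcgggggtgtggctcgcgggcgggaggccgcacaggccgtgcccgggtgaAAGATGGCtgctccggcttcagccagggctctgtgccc
*Rab11fip4* (mm9 chr11:79460054-79460253, plus strand): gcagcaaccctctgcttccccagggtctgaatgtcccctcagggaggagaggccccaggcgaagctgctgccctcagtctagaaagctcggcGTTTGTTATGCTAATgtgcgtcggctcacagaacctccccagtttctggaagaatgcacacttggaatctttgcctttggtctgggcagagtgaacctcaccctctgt
*E030010N08Rik* (mm9 chr1:95124048-95124247, plus strand): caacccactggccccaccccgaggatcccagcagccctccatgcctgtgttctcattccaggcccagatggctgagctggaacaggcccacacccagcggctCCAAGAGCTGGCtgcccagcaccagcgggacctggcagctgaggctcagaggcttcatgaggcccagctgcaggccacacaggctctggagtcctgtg

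The fourth set holds tall sites at 5 kb or more from any TSS with several copies of the 6-base words TCTAGA and TCTGGA. The second word reads TCCAGA on the other strand. These words were picked after values of these data had been seen. In *Tex21* the starts of the 4 copies are 23, 23 and 26 bp apart, in *Lima1* and *Hdac4* the 2 copies are 11 and 12 bp apart, and in *Nav1* they are 41 bp apart. In *Sash1* the 3 copies are 22 and 11 bp apart.
*Tex21* (mm9 chr12:77310576-77310775, plus strand): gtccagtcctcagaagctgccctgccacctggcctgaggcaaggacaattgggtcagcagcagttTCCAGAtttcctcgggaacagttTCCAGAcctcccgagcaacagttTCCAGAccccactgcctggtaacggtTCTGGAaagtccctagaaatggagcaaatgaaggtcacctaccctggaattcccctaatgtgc
*Lima1* (mm9 chr15:99696373-99696572, plus strand): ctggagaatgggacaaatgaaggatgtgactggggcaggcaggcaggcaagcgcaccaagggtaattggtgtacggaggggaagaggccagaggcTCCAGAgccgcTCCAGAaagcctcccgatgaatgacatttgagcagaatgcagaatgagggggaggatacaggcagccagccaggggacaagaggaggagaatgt
*Nav1* (mm9 chr1:137572512-137572711, plus strand): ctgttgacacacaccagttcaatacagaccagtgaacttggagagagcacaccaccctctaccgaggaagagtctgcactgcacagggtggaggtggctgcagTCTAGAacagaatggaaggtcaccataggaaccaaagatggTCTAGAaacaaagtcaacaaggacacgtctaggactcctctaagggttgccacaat
*Hdac4* (mm9 chr1:93941112-93941311, plus strand): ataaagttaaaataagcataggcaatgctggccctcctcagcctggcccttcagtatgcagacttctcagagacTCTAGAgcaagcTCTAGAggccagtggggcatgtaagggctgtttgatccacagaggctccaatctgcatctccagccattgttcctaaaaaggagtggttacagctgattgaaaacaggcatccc
*Sash1* (mm9 chr10:8552465-8552764, plus strand): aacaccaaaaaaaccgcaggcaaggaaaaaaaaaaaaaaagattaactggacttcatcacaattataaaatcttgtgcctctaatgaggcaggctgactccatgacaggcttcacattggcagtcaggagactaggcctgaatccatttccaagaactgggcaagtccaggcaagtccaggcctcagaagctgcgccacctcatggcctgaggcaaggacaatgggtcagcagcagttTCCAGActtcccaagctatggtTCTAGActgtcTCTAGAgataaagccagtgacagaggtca

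Intronic sites were mostly low. The lowest, median and highest Zfp322a heights were 9, 9 and 43 reads, and 376 of the 739 sites (50.9%) had a height of exactly 9. A height of 10 was reached by 169 sites (22.9%), so that 545 sites (73.7%) stood at 9 or 10. Sites of 11 or more numbered 194, those of 13 or more 80 (10.8%), those of 20 or more 17, and those of 30 or more 5. In the same sites the median IgG height was 2 and the highest 10, and no IgG fragment covered 62 sites. The fold of heights had a median of 4.50 and reached 32.0. Counted as reads in the 1000 bp around the summit, the interval of the fold per library read lay above 1 at 322 sites (43.6%). At the other sites it did not, although these reads include those that made the site. The length of a site, counted as the bases at or above a height of 9 with their joined gaps, had a median of 84 bp. It ran from 1 to 952 bp, with 14 sites of a single base and 71 above 300 bp. Thus a typical intronic site was a short stretch that just met the height limit.

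Before the fold was applied, 1205 intronic stretches had a Zfp322a height of 9 or more, and 61.3% of them were kept, against 52.3% of the 7406 stretches at any position. When the libraries were exchanged, 317 intronic stretches had an IgG height of 9 or more, and 145 of them (45.7%) had 3 or more times the Zfp322a height. The rule used these heights, so the shares are a description. The exchanged stretches were lower still, with 95.2% of them at 9 or 10, 7 at 11 or more and 1 at 13, their greatest height. The 80 intronic sites of 13 or more therefore stood against 1 such stretch in the exchanged libraries, while at 9 or 10 the numbers were 545 and 138. Stretches under 3-fold, 466 in all, had a median Zfp322a height of 10 and a median IgG height of 5, and in 22 of them the IgG height equalled or passed the Zfp322a height.

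**Figure D1:**
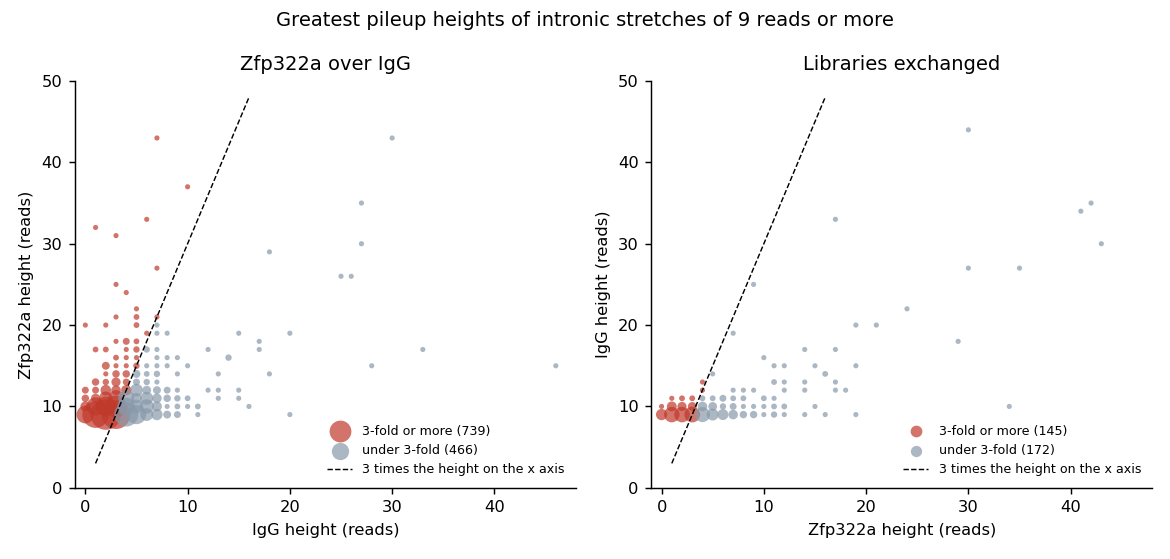
Greatest Zfp322a height against greatest IgG height, both in reads, of the 1205 intronic stretches of 9 or more Zfp322a reads (left), and the same with the libraries exchanged (right). The area of a point grows with the number of stretches at that pair of heights, red points met the 3-fold rule, and the dashed line marks 3-fold. Red points reach 43 reads on the left and 13 on the right, and most lie at 9 or 10 in both.

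Near the limits, sites differed little from stretches that were left out. A height of 9 against an IgG height of 3 was found at 113 sites, such as those in *Tram2* (chr1:21068761-21068935) and *Ptpn18* (chr1:34529948-34529982). In all, 129 sites (17.5%) had a fold of exactly 3. Just outside, 747 intronic stretches had a greatest height of 8 and 3-fold or more, and 91 stretches of 9 or more had a fold from 2.5 to under 3. The nearest of these were in *Kcmf1*, with 20 Zfp322a against 7 IgG reads (2.86-fold), and in *Ahcy*, with 17 against 6 (2.83-fold). As counts, 9 against 3 reads give a fold per library read of 2.80 with an interval of 0.699 to 16.1, while 43 against 7 give 5.74 (2.56 to 15.1). The rule selected on these heights, so the intervals give counting error only and do not bound the fold at such sites.

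The 20 highest sites fell into those close to a TSS (8 under 5 kb) and those farther into genes (12 at 5 kb or more). Ties were ordered by the smaller IgG height, then by chromosome and start, which left out 5 further sites of height 18, in *Gnai2*, *Gm5432*, *Zc3h7b*, *Ctnnbl1* and *Cabin1*. The highest, in the first intron of *Vcp*, an ATPase that extracts ubiquitinated proteins, had a Zfp322a height of 43 and an IgG height of 7 at chr4:43012394-43013202, 507 bp from the nearest TSS. In *Tcfap4*, a basic helix-loop-helix transcription factor, the heights were 37 and 10 (chr16:4558443-4558926). *Dcaf5*, a substrate receptor of a cullin ubiquitin ligase, had 31 and 3 (chr12:81535976-81536524). All 3 lay in first introns, and their reads in 1000 bp were 69 against 11, 47 against 14 and 39 against 3.

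Other high sites in first introns near a TSS were in *Tmem17*, a membrane protein of the base of the cilium, with heights of 27 and 7, in *Anp32b*, an acidic nuclear histone chaperone, with 24 and 4, and in *Nalcn*, a sodium leak channel, with 18 and 3. Of the 8 high sites under 5 kb from a TSS, 6 had CpG-rich sequence, defined as a ratio of observed to expected CpG of 0.6 or more in the 300 bp around the summit. The exceptions were *Fam129b*, with heights of 22 and 5 in the second intron, and *Gm17245*, a long intergenic RNA gene, with 21 and 5.

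Among the 12 high sites at 5 kb or more, 1 had CpG-rich sequence and 7 had 2 or more of the words TCTAGA and TCTGGA. The site in the third intron of *Rab11fip4*, an effector of Rab11 in endosome recycling, had heights of 33 and 6 (chr11:79459970-79460493), 7.60 kb from the nearest TSS and 55.5 kb from the start of the gene. The site in the seventh intron of *Tex21* had heights of 32 and 1 (chr12:77310425-77310846), 32.4 kb from the nearest TSS, and the greatest fold of heights of all intronic sites. *Hdac4*, a class II histone deacetylase, had a site in its second intron with a height of 20 and no IgG fragment at all (chr1:93941025-93941415). In 1000 bp there were 22 Zfp322a reads and 0 IgG reads, and the interval of the fold per read began at 5.12. The site was picked for its heights, so this interval gives counting error only and does not bound the fold.

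*Arid1b*, a subunit of the BAF chromatin remodelling complex, was the CpG-rich exception, with heights of 21 and 5 at 77.8 kb from the nearest TSS (chr17:5189633-5190104). Sites with 2 or more of the hexamers were also found in *Lima1*, an actin-binding protein, with heights of 25 and 3, in *Nav1*, a neuron navigator, with 21 and 3, in *Sash1*, an adaptor protein, with 20 and 2, and in *Ubxn11*, a UBX domain protein, with 18 and 4. The remaining high sites were in *Bsn*, a scaffold protein of the presynapse (21 and 7), *E030010N08Rik* (20 and 5), *Pole4*, a subunit of DNA polymerase epsilon (20 and 5), and *Def8* (19 and 6). At *Def8* the reads in 1000 bp were 27 against 14, and its fold per read of 1.80 was the lowest of the 20.

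**Figure D2:**
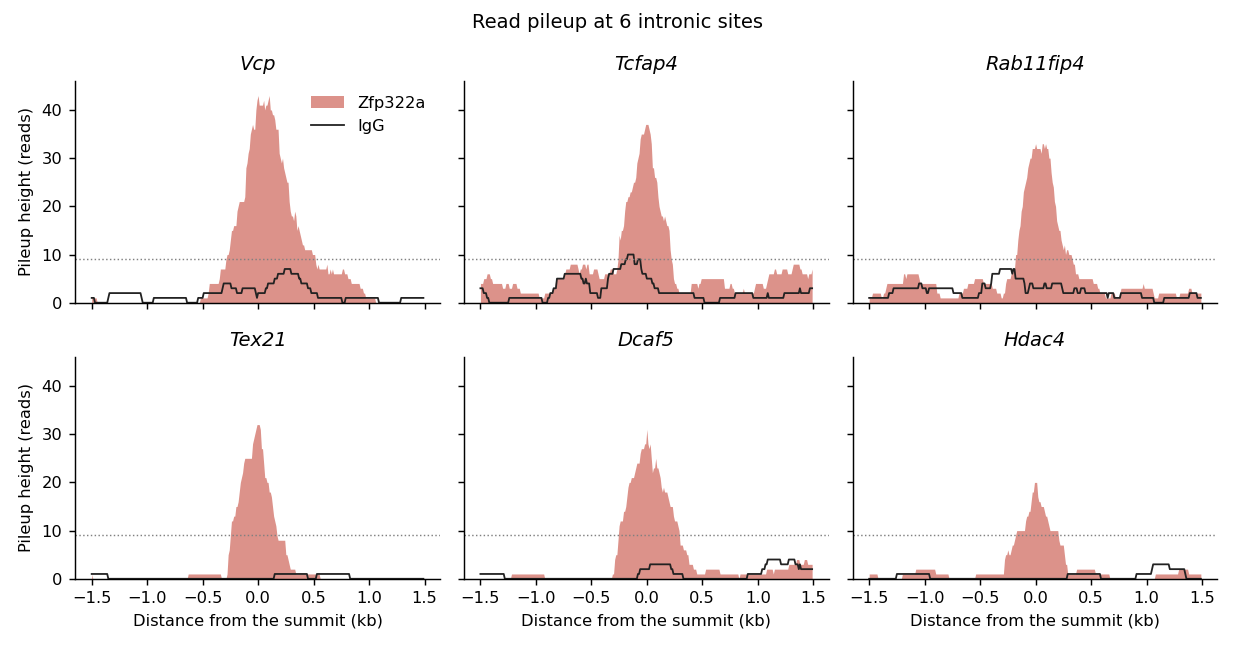
Pileup height in reads against distance from the summit in kb at 6 of the highest intronic sites, with Zfp322a as a filled area, IgG as a line and the height of 9 dotted. Within the site the IgG line reaches 7 reads at *Vcp*, 10 at *Tcfap4* and 6 at *Rab11fip4*, and 3 reads or less at *Tex21*, *Dcaf5* and *Hdac4*.

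Intronic sites lay closer to TSSs than introns do on the whole. Although sites touching the TSS window had been removed, 246 of 739 (33.3%, interval 29.9 to 36.8%) were within 1 kb of a TSS, a distance that held 2.78% of the 944 Mb of intron outside TSS windows. Within 5 kb there were 451 sites (61.0%, 57.4 to 64.6%), against 20.6% of intron bases. Conversely, 86 sites (11.6%) lay 20 kb or more from a TSS, where 46.9% of intron bases lie, and 26 (3.52%) at 50 kb or more, against 23.8%. First introns held 467 sites (63.2%), against 38.8% of intron bases. The median distance to a TSS was 2.89 kb.

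The same leaning was measured in intronic stretches that failed the fold. Of the 466 stretches under 3-fold, 33.9% were within 1 kb of a TSS, 62.2% within 5 kb and 66.5% in a first intron, and their median distance was 2.48 kb. In the exchanged libraries it was weaker, with 15.2% within 1 kb, 39.3% within 5 kb, 55.9% in a first intron and a median distance of 7.78 kb. The share of intronic sites within 5 kb was 20.4% when the TSS window was widened to 3000 bp on both sides. With reads of any mapping quality it was 48.3%.

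**Figure D3:**
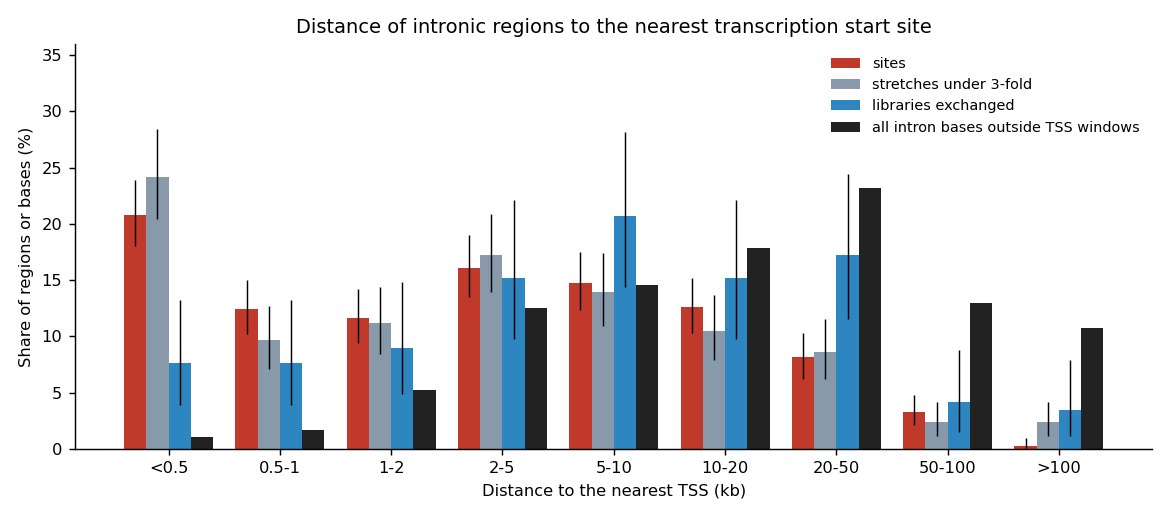
Share (%) of intronic sites (red), of intronic stretches under 3-fold (grey), of stretches from the exchanged libraries (blue) and of all intron bases outside TSS windows (black) by distance to the nearest TSS in kb, with exact 95% intervals. Under 0.5 kb lay 20.8% of sites and 1.07% of bases, and from 20 to 50 kb 8.12% of sites and 23.2% of bases.

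In base composition the intronic sites stood between TSS sites and ordinary intron. CpG-rich sequence was present in 169 of 739 sites (22.9%, 19.9 to 26.1%), in 78.6% of TSS sites and in 16.2% of intergenic sites, and in 1.36% of the 3113498 windows of 300 bp tiled over intron outside TSS windows. The difference was tested with Fisher's exact test, two-sided and adjusted by Benjamini-Hochberg over both contrasts, which compares sites of this pair of libraries and not replicates. Adjusted exact p was 1.02e-163 against TSS sites and 0.00366 against intergenic sites. The contrast with intergenic sites did not hold under 5 of the alternative settings (adjusted exact p from 0.0618 to 0.405) and reversed with the wider TSS window, where 3.04% of intronic sites were CpG-rich (adjusted exact p = 2.58e-10).

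CpG-rich sites were concentrated near TSSs. The share was 57.7% under 1 kb from a TSS (142 of 246), 8.78% from 1 to 5 kb, 1.49% from 5 to 20 kb and 6.98% at 20 kb or more. Stretches under 3-fold were CpG-rich in 31.5% of cases and exchanged stretches in 9.66%. The median GC content of the sites was 56.7%, against 42.3% for intron windows, and 31.0% of sites but 0.638% of windows had 60% GC or more. Over all intron windows the Zfp322a to IgG ratio per library read also rose with GC content, from 0.965 under 50% GC to 1.09 from 50 to 60% and 1.26 at 60% or more. The part of GC content in the position and motif content of the sites was not tested.

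Sequence words were searched on both strands of the 300 bp around the summit, and each of 16 words was compared between intronic and intergenic and between intronic and TSS sites (Fisher's exact test, two-sided, Benjamini-Hochberg over the 32 tests). A match says only that the letters are present. In 164 of the 739 windows (22.2%) part of the 300 bp was exon.

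The motifs derived by the study differed in how they divided between site classes. Motif 3 was found in 4 intronic sites (0.541%), in 2.67% of TSS sites and in 0 of the 536 intergenic sites, against 0.0925% of intron windows. Intronic sites held it less often than TSS sites (adjusted exact p = 0.00118 by Fisher's exact test). The 4 sites were in *Cfl2*, a regulator of actin filaments, with heights of 12 and 2, *Wdr43*, a protein of ribosome assembly, with 10 and 1, *Matr3*, a protein of the nuclear matrix, with 10 and 2, and *Ndufs4*, a subunit of respiratory complex I, with 9 and 2. All 4 lay within 1 kb of a TSS in CpG-rich sequence of 60% GC or more, a range in which 1.75% of sites and 5.70% of intron windows held motif 3, so that within it the share was lower in sites than in windows. With reads of any mapping quality the direction reversed: 11.4% of intronic sites then held motif 3, more than TSS sites (adjusted exact p = 2.79e-23), whereas with reads of mapping quality 1 or more the share was 0.531%, still below TSS sites (adjusted exact p = 0.00119). The call was also lost at a fold of 5 or more and among sites with separated strands (adjusted exact p = 0.505 and 0.143).

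Motif 1, a degenerate 10-base element that the study also derived, was more common. It was present in 186 intronic sites (25.2%), in 24.1% of intergenic and 20.9% of TSS sites and in 9.56% of intron windows, and neither contrast passed the adjusted threshold (adjusted exact p = 0.853 and 0.0515). The order of sites and windows turned with GC content. From 50 to 60% GC the share was 27.0% in sites and 20.4% in windows, and at 60% or more it was 23.1% in sites and 29.7% in windows. Motif 2, counted where 10 or more of 12 bases in a row were A, was found in 5.95% of intronic sites, more often than in TSS sites (3.17%, adjusted exact p = 0.00579) and less often than in the intron windows (26.3%, not tested). From 50 to 60% GC the share was 5.93% in sites and 5.90% in windows. The call for motif 2 was lost under 6 of the alternative settings, and in 1 of them, with matches counted over the whole site, the direction reversed.

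GAGCCTGG, the core of the human ZNF322 element, was present in 54 intronic sites (7.31%), in 5.22% of intergenic and 3.97% of TSS sites, and in 1.72% of intron windows. The contrast with TSS sites passed the threshold (adjusted exact p = 0.00246) and that with intergenic sites did not (adjusted exact p = 0.264). With reads of any mapping quality the contrast with intergenic sites did pass for GAGCCTGG (adjusted exact p = 0.00279). Under that setting it also passed for motif 1 (adjusted exact p = 0.00791), motif 2 (adjusted exact p = 2.65e-05) and motif 3 (adjusted exact p = 1.62e-13). At 50 to 60% GC the share was 7.69% in sites and 4.07% in windows. The call against TSS sites was lost under 6 alternative settings, such as a minimal height of 11 (5.09%, adjusted exact p = 0.765). The highest sites with this word were those printed above for *Vcp*, *Pole4* and *Arhgef3*, a guanine nucleotide exchange factor, with heights of 43 and 7, 20 and 5, and 14 and 4.

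Words of promoter factors were less frequent in intronic than in TSS sites. The GC box GGGCGG, bound by Sp1 and related factors, was in 26.5% of intronic and 62.3% of TSS sites (adjusted exact p = 1.01e-63). For the palindrome of Nrf1, a factor of mitochondrial gene expression, the shares were 0.677% and 8.78% (adjusted exact p = 4.35e-18). The ETS word CCGGAAGT was in 1.76% against 7.49% (adjusted exact p = 4.32e-09), and the E2F word GGCGGGAA, of a family that drives cell cycle genes, in 1.49% against 4.73% (adjusted exact p = 0.000209), a call lost under 3 alternative settings. The short word AANATGGC, which motif 3 contains, was in 5.55% against 8.38% (adjusted exact p = 0.0386), but this call was lost under 4 alternative settings, and the direction reversed with reads of any mapping quality and at a fold of 5 or more. None of these passed the threshold against intergenic sites, where adjusted exact p ran from 0.0597 for GGGCGG to 0.891 for CCGGAAGT. In this contrast calls appeared under 1 alternative setting each for GGGCGG without joining (adjusted exact p = 0.000657), the Nrf1 palindrome with fragments of 200 bp (adjusted exact p = 0.00587) and AANATGGC with any mapping quality (adjusted exact p = 1.40e-09).

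The core of the CTCF element was less frequent in intronic than in intergenic sites, with 30 intronic sites (4.06%) against 7.65% (adjusted exact p = 0.0258), and this call was lost under 8 alternative settings. Among TSS sites the share was 2.54% (adjusted exact p = 0.104), and among intron windows it was 1.43% (not tested). Words of factors of the mES cell network showed no difference past the threshold in either contrast. The Esrrb word TCAAGGTCA was in 1.08% of intronic sites, the CACCC box CCACNCCC of Klf factors in 17.1%, the E box CACGTG of Myc in 9.20%, the Zfx word AGGCCTNG in 14.7% and the Stat word TTCCNGGAA in 1.08%. In the same order, intron windows held them in 0.724%, 7.15%, 3.28%, 3.56% and 0.757% of cases (not tested). From 50 to 60% GC the shares in sites were 1.54%, 15.6%, 9.23%, 14.3% and 1.10%. In windows of that GC content they were 0.788%, 15.2%, 5.2%, 7.5% and 0.875%. The Oct4/Sox2 composite was matched in 4 intronic sites (0.541%), in *Rab11fip4*, *Rufy1*, *Ablim1* and *Zfp64*, and in 0.425% of intron windows. From 50 to 60% GC it was matched in 3 sites (0.659%) and in 0.138% of windows. Each of these words except the Stat word passed the threshold in a contrast under 1 to 4 alternative settings.

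**Figure D4:**
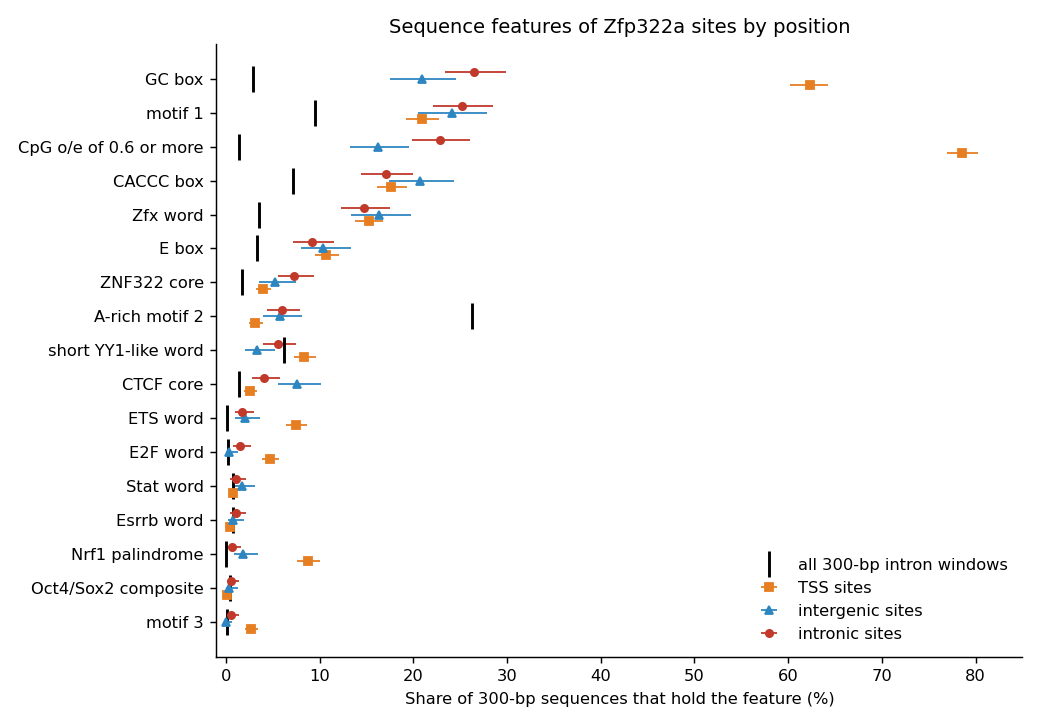
Share (%) of 300-bp sequences around the summit that hold a feature, for intronic, intergenic and TSS sites with exact 95% intervals, with black bars for all intron windows (CpG o/e is the ratio of observed to expected CpG). Intronic and TSS sites stand apart at the GC box (26.5% and 62.3%) and at CpG-rich sequence (22.9% and 78.6%), while the A-rich motif 2 is more frequent in intron windows (26.3%) than in sites.

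Tall sites differed in sequence by their distance from TSSs. Under 5 kb the share of CpG-rich sites was 31.5% at heights of 9 or 10, 40.3% at 11 or 12 and 58.1% (42.1 to 73.0%) at 13 or more. At 5 kb or more it stayed low, at 2.39%, 4.76% and 5.41%. The hexamers went the other way. At 5 kb or more, 2 or more copies of TCTAGA or TCTGGA were held by 8.13% of sites of 9 or 10 (17 of 209), 11.9% of those of 11 or 12 (5 of 42) and 40.5% of those of 13 or more (15 of 37, interval 24.8 to 57.9%). Under 5 kb the shares were 3.57%, 4.17% and 4.65%.

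The hexamers were noticed in the tallest of these sites, so the shares carry no test. For comparison, 2 or more copies were held by 7.31% of all intronic sites, 5.36% of stretches under 3-fold, 3.45% of exchanged stretches, 2.85% of TSS sites and 4.76% of intron windows. Intergenic sites held them in 8.51% of cases at heights of 9 or 10 and in 19.0% (11 to 29.4%) at 13 or more. The 17 intronic sites of 13 or more with 2 or more copies were in *Rab11fip4*, *Tex21*, *Lima1*, *Nav1*, *Gm17245*, *Hdac4*, *Sash1*, *Ubxn11*, *Gm5432*, *Cabin1*, *Gm16641*, *Rufy1*, *Dysf*, *Kdm2a*, *Tpcn1*, *Rnf111* and *Mgat5b*. All but *Gm17245* and *Mgat5b* lay 5 kb or more from a TSS.

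**Figure D5:**
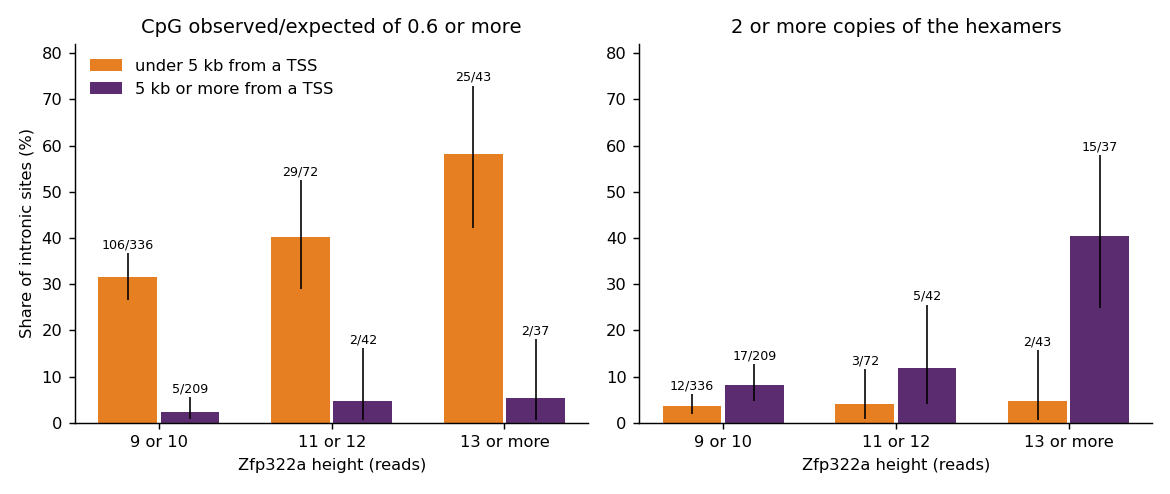
Share (%) of intronic sites with CpG-rich sequence (left) and with 2 or more copies of the hexamers TCTAGA and TCTGGA (right) by Zfp322a height in reads, for sites under 5 kb (orange) and 5 kb or more (purple) from a TSS, with exact 95% intervals and the counts above each bar. CpG-rich sites make up 25 of 43 tall sites near a TSS, and sites with the hexamers 15 of 37 tall sites far from one.

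Some of the hexamer sites shared longer sequence. Among the 15 such sites at 5 kb or more, those in *Sash1* and *Gm16641* had 27 bases in a row in common on either strand, *Tex21* and *Sash1* 22, and *Tex21* and *Gm16641* 21. The remaining pairs shared at most 13 bases, and the median over the 105 pairs was 9 bases. As a measure of repeated sequence, the 16-base words of each 300-bp window were counted in the genome, and a word with 10 or more copies was called repeated. Repeated words made up 50.5% of the window at *Tex21*, 41.4% at *Sash1* and 35.4% at *Gm16641*, and 3.16% at *Hdac4*.

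Repeated sequence was rare in intronic sites as a whole. Windows with 50% or more repeated words made up 7 of the 739 sites (0.947%, 0.382 to 1.94%), and 16.5% of every 100th intron window. The median was 7.02% repeated words in sites and 18.6% in windows. The mapping quality filter keeps reads that fit a unique place, which favours a low share in sites. Intron windows were not filtered in this way, and the size of the filter's part was not tested.

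Forward and reverse reads were compared with the test of the study's peak detection. In the study a p of 0.05 was a cutoff that filtered peaks, whereas the sites here did not have to pass it. A Mann-Whitney U test of their 5′ ends within 300 bp of the summit, one-sided, gave p under 0.05 at 314 intronic sites (42.5%, 38.9 to 46.1%). The same held for 45.5% of intergenic sites, 42.4% of TSS sites, 39.3% of intronic stretches under 3-fold and 49.0% of exchanged stretches. The share was therefore no higher in intronic sites than in the exchanged libraries. Within intronic sites it was 38.9% at heights of 9 or 10 and 63.8% (52.2 to 74.2%) at 13 or more. Taller sites bring more reads to this test, so a rise with height is favoured by construction and is no measure of site quality. Reverse reads lay downstream of forward reads at 96.6% of sites, with a median shift of 164 bp, an order that extending reads by strand favours.

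The flanks of intronic sites also held more Zfp322a reads. From 300 to 1300 bp outside the sites, which the rule did not use, there were 9266 Zfp322a and 6621 IgG reads, a fold per library read of 1.31 (1.27 to 1.35). Around stretches under 3-fold it was 1.14 (1.10 to 1.18) and around exchanged stretches 0.959 (0.894 to 1.03). By distance from a TSS it was 1.42 under 1 kb, 1.24 from 1 to 5 kb, 1.28 from 5 to 20 kb and 1.19 (1.07 to 1.32) at 20 kb or more. These intervals treat reads as independent. Over all intron windows the fold was 1, but it was 1.26 in windows of 60% GC or more. Flanks were not matched for GC content, and near a TSS they can reach into TSS windows. The part of GC content and of neighbouring TSS sites in the flank folds was not tested.

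The sites were spread over many genes. Taking for each site the protein-coding gene with the shortest span that held its middle in an intron, or another gene where there was none, 650 genes hosted the 739 sites. A single site was hosted by 588 genes, 2 sites by 42 and 3 or more by 20. Protein-coding genes hosted 702 sites, long intergenic RNA genes 21, processed transcripts 14 and pseudogenes 2. Of the 19270 protein-coding genes with intron outside TSS windows, 617 (3.20%) hosted a site, and the hosts had longer intron (median 37 kb) than all such genes (15.4 kb).

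*Ccnd3*, which encodes cyclin D3, hosted the most sites, 6 over 76.4 kb of chromosome 17, with Zfp322a heights of 11, 12, 10, 9, 9 and 11 and IgG heights of 3, 4, 2, 0, 2 and 2. *Sept9*, a septin of the cytoskeleton, had 5 sites with heights of 9 to 12 and IgG heights of 0 to 3. *Heatr7b1* had 4 sites, all of height 9, and *Rab11fip4* had 4, with heights of 13, 10, 33 and 9. Apart from those of 33 and 13 at *Rab11fip4*, the sites in these genes stood at 12 or less. Spread evenly over intron, the 739 sites would place under 1 site in each of the 4 genes. An even spread takes no account of the gathering of sites near TSSs or of the different densities of chromosomes.

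A further 16 genes had 3 sites. They were *Dagla*, *Eng*, *Gm20388*, *Ksr1*, *Msi2*, *Rapgef1*, *Rhbdf2*, *Rhbg*, *Rnf220*, *Sema3f*, *Sema4b*, *Sh3pxd2a*, *Slc39a11*, *Sulf2*, *Tcte2* and *Ubxn11*. Among them are semaphorins of cell guidance, the RNA-binding protein Msi2 of stem and progenitor cells, and Eng, a co-receptor of TGF-beta. Heights ran from 9 to 13 in 15 of these genes and up to 18 in *Ubxn11*, where they were 9, 18 and 16. *Gm20388* is annotated with 3952 kb of intron, far more than the other hosts.

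Of the 617 protein-coding hosts, 85 (13.8%, 11.2 to 16.8%) had a site in a TSS window of their own, against 2234 of the 19270 genes (11.6%). Of the 739 sites, 25 (3.38%) lay within 1000 bp of a TSS site. Among stretches under 3-fold the share was 3.86%.

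Of 41 listed genes of the pluripotency network with intron outside TSS windows, 3 hosted a site (7.32%, 1.54 to 19.9%), against 3.20% of all protein-coding genes. *Smarca4*, the ATPase of the BAF complex, had heights of 15 and 2 in its first intron, 402 bp from a TSS. The site in *Esrrb*, an orphan nuclear receptor of the pluripotency network, had 9 and 0, and that in *Zscan10*, a zinc finger protein of ES cells, had 9 and 1. The last 2 stood at the height limit. Reads in 1000 bp were 22 against 4 at *Smarca4*, 10 against 7 at *Esrrb* and 18 against 6 at *Zscan10*. The fold per read at *Esrrb* was 1.33 (0.459 to 4.13). Spread evenly over intron, 0.755 sites would fall in these genes, and 3 were found. Here and in the lists below, the even spread takes no account of the gathering of sites near TSSs. It also ignores the different densities of chromosomes, so it is no expected count for lists of unlike intron length.

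In the MAPK pathway, 7 of 131 genes hosted 9 sites (5.34%, 2.18 to 10.7%), where an even spread over their intron gives 11.7 sites. *Cacna1a*, a calcium channel subunit, had heights of 11 and 2, *Fgfr2*, a receptor of fibroblast growth factors, 10 and 1, and *Rps6ka4*, a kinase downstream of ERK and p38, 10 and 2. The *Fgfr2* site lay 1469 kb from the nearest upstream start annotated for that gene and 87.9 kb from the nearest TSS. It is counted in *Fgfr2* only through a very long annotated transcript. The sites in *Flna*, a filamin that links actin to membranes, and in the kinases *Map4k1* and *Pak2* had a height of 9. *Ksr1*, a scaffold of the Raf, MEK and ERK kinases, held 3 sites of height 9 with IgG heights of 3, 3 and 2. Its reads in 1000 bp were 11 against 11, 11 against 8 and 13 against 5. At *Cacna1a*, *Fgfr2* and *Rps6ka4* they were 14 against 9, 11 against 1 and 23 against 8. At *Flna*, *Map4k1* and *Pak2* they were 15 against 3, 10 against 2 and 18 against 3. No site of this list was taller than 11 reads. The X chromosome, where *Flna* lies, had a Zfp322a to IgG ratio per library read of 1.32, the highest of the X chromosome and autosomes.

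Chromatin regulators hosted the tallest sites of the lists. Of 116 genes, 12 hosted 13 sites (10.3%, 5.46 to 17.4%), with 6.10 sites at an even spread. After *Arid1b* and *Hdac4*, given above, came *Kdm2a*, a histone demethylase, with heights of 15 and 2, *Setd2*, a histone H3 methyltransferase of transcribed genes, with 15 and 2, *Smarca4* with 15 and 2, and *Kdm6b*, a demethylase that opposes Polycomb, with 12 and 3. *Arid1a*, another BAF subunit, had 10 and 2. The sites of height 9 included those in *Dnmt1*, the maintenance DNA methyltransferase, and in *Kat2b*, *Kdm4b* and *Nsd1*. At *Setd2*, *Kdm2a* and *Smarca4* the reads in 1000 bp were 21 against 3, 22 against 2 and 22 against 4. At *Dnmt1*, *Kat2b*, *Kdm4b* and *Nsd1* they were 15 against 10, 16 against 5, 11 against 6 and 21 against 6. The interval of the fold per read began under 1 at *Dnmt1* (0.589) and *Kdm4b* (0.581), and above 1 at *Kat2b* (1.05) and *Nsd1* (1.28).

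Of 71 genes of Wnt, LIF, BMP and related signalling, 5 hosted 1 site each (7.04%, 2.33 to 15.7%), with 3.36 at an even spread. All had a height of 9. *Lifr*, the receptor of LIF, had an IgG height of 3, *Notch1* of 2, and *Notch2*, *Sufu* and *Tcf3* of 1. In the same order, reads in 1000 bp were 11 against 6, 15 against 7, 12 against 3, 11 against 4 and 12 against 7. *Tcf3* on chromosome 10 encodes the basic helix-loop-helix factor E2A and is no member of the Wnt pathway, although its symbol is also used for a Wnt effector. The 4 lists differ in intron length, with medians of 9.90, 52.7, 42.4 and 40.7 kb in the order given, and the lists were chosen with earlier results of these data known, so the shares are a description.

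The authors deposited reads of 925 numbered regions from their peak detection, which form 754 distinct intervals. These overlapped 83 of the 739 intronic sites (11.2%). The deposited intervals are fewer than the putative sites that the study reports. They are also fewer than the rebuilt sites at any position, for which the overlap is not given here. The share is therefore no recovery rate for intronic sites. The overlap rose with height: 44 of 80 sites of 13 or more (55%) overlapped a deposited region, 16 of 545 at 9 or 10 (2.94%), and 10 of the 20 highest. Of the 466 stretches under 3-fold, 4 did. Both lists came from the same reads, so the overlap is no independent check of the sites.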

How the data were processed

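ChIP-seq reads of 1 Zfp322a and 1 IgG library were analysed. The reads, 36 bp long, came from a Genome Analyzer IIx and were aligned by the authors to mm9. The submitters' processing notes name CASAVA 1.4, BWA and Partek 6.6, and Partek's peak detection assumed fragments of 300 bp and compared forward with reverse reads by the Mann-Whitney U test. The deposited files list each mapped read with its position and a mapping quality score given by the aligner. Removal of duplicate reads is not given in the sources used here. Deposited reads in numbered peak regions of the Zfp322a library served for overlap, and those of the IgG library were not used.

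Pileups, sites and classes were computed with Python 3.11.15, numpy 2.4.6, scipy 1.17.1, pandas 2.3.3 and numba 0.67.0, and plotted with matplotlib 3.10.9. GENCODE vM1 gave 37310 genes and 95495 transcripts. IgG heights were used unscaled. Motifs and CpG content were read from the mm9 genome in 300 bp around the summit. Intervals are Clopper-Pearson for shares and exact conditional binomial for folds per library read, at 95%. As no reads of a library shared strand and 5′ position, neither PCR copies nor independent fragments of that kind were counted more than once. Fisher's exact test compared sequence features between site classes. No test compared the antibodies, which lacked replicates. The functions were tested on simulated data.

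Genes were named when they hosted 1 of the 20 highest sites, 3 or more sites, a site at a threshold, a site in 1 of 4 gene lists, or a printed sequence. A gene of the lists that is counted in them is not reported by name here. Genes named for motif 3, for the composite element or for the hexamers in tall sites were added after their values were seen. The members, gene lists and words were chosen with earlier results of these data known. The alternatives were other limits of mapping quality, fragment size, height, fold and joining gap, scaled IgG heights, a wider TSS window, protein-coding transcripts only, a strand filter and other motif windows.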

Additional observations from a re-analysis of the deposited data

Results flagged for a closer look

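Reads of mapping quality under 25 stood outside the measurement that defined the intronic sites. Within the 739 sites there were 217 such Zfp322a reads and 49 such IgG reads, a fold per library read of 4.13 (3.01 to 5.75), and this excess over the control led to the closer look. The reads were found in few places, with Zfp322a reads in 21 sites and IgG reads in 9. In intronic stretches under 3-fold the counts were 1231 and 1085, a fold of 1.06 (0.974 to 1.15), and in stretches from the exchanged libraries they were 2 and 4. Sites from 5 to 20 kb from a TSS held 153 of the Zfp322a reads and 7 of the IgG reads. Reads within 1 site are not independent, so the interval is too narrow for a statement over sites.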

How the results depend on the processing

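No paired analysis was possible because each antibody had 1 library, and for the same reason no replicate could be left out. The number of intronic sites was 396 with reads extended to 200 bp, 275 with stretches called anew at a height of 11 or more (a count other than that of sites reaching 11), 333 at a fold of 5 or more, 1573 without joining, 362 with a TSS window of 3000 bp on both sides and 314 with separated strands. With reads of any mapping quality there were 1106 intronic sites, and with scaled IgG heights 608. The share of stretches past 3-fold was 55.3% with reads of any mapping quality, 68.0% at 200 bp and 50.5% with scaled IgG heights. It has no value under the fold and strand alternatives. The share within 5 kb of a TSS was 48.3% with any mapping quality, 66.2% at height 11, 54.7% at fold 5, 71.5% without joining, 20.4% with the wider TSS window, 55.8% with protein-coding transcripts and 56.1% with separated strands. For first introns the values were 56.9% with any mapping quality, 68.0% at height 11, 56.8% at fold 5, 70.8% without joining, 41.2% with the wider window and 57.0% with separated strands. CpG-rich sequence was found in 23.1% with any mapping quality, 31.3% at 200 bp, 37.1% at height 11, 18% at fold 5, 35.6% without joining, 19.9% with joining over 1000 bp and 16.2% with separated strands, and in 3.04%, now below intergenic sites, with the wider window. Separated strands were found in 29.4% with any mapping quality, 35.4% at 200 bp, 47.6% at height 11, 32.5% without joining and 47.5% with the wider window. Motif 1 was in 33.7% with any mapping quality and 25.9% with joining over 1000 bp, where it passed the threshold against TSS sites, in 21.4% without joining, in 16.6% of 200-bp windows and in 9.88% of whole sites (adjusted exact p = 8.44e-05 against TSS sites). Motif 3 was in 11.4% with any mapping quality, with the direction reversed, in 0.901% at fold 5, in 0% with the wider window and in 0.637% with separated strands. GAGCCTGG was in 5.33% with any mapping quality, 6.06% at 200 bp, 5.09% at height 11, 7.51% at fold 5, 4.46% with separated strands, 5.41% of 200-bp windows and 3.79% of whole sites. The direction against TSS sites also reversed for motif 2 over whole sites (1.76%) and for AANATGGC with any mapping quality (15.7%) and at fold 5 (7.21%). The cause of these changes was not tested, beyond the smaller number of sites or bases that an alternative leaves by construction. At the depth of these libraries a mean of 0.567 Zfp322a reads fell in an intron window of 300 bp, and for a site of 9 against 3 reads the interval of the fold per library read reached down to 0.699.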

Other observations

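The Zfx word AGGCCTNG was more frequent in taller intronic sites. It was present in 11.9% of sites of height 9 or 10, 21.1% of those of 11 or 12 and 25% of those of 13 or more. In stretches under 3-fold the share was 16.3% and in exchanged stretches 6.90%. No test was run on this order. Among the autosomes and the X chromosome, the density of intronic sites per Mb of intron ran from 0.196 on the X chromosome to 1.76 on chromosome 11. The Zfp322a to IgG ratio per library read differed between these chromosomes as well, from 0.76 on chromosome 8 to 1.32 on the X chromosome. The Y chromosome, with 0.564 Mb of intron, held 0 sites and had a ratio of 0.507. Of the 739 sites, 11 shared 30 bases in a row with another intronic site, and the highest of these reached 21 reads. In 208 sites none of the searched words other than motif 2 was found.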
